A study of Mus musculus with 69 samples.

Results

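The surfactant and alveolar type 2 genes were 9 genes chosen by name (Sftpa1, Sftpb, Sftpc, Sftpd, Abca3, Lamp3, Napsa, Lpcat1 and Slc34a2), and 8 of the 9 had at least 1 probe among the 17639 genes tested in these mouse lungs. No probe matched Lpcat1, an acyltransferase of surfactant phospholipid synthesis, which was not analysed here. RNA from a small frozen piece of lung was measured in 69 female C57BL/6 mice, 1 mouse to an array, and the mice had been bought at 5 to 7 weeks of age and kept for 1 to 3 weeks before exposure. Each mouse had received a single instillation into the trachea of titanium dioxide nanoparticles or of vehicle alone. NRCWE-001 was the particle without surface charge and NRCWE-002 the positively charged one, each given at 18, 54 or 162 µg, and lungs were taken on day 1 or day 28. The vehicle was water with 2% serum per the series description, while the sample titles name water only. There were 5 mice in each of the 12 particle groups, 5 vehicle mice on day 1 and 4 on day 28, so that 14 groups were compared. Replicates are taken as separate mice because each title carries its own sample number, and nothing else is stated on how they were grouped. On every array the lung RNA carried Cy5 and a commercial pool of mouse RNA, the reference, carried Cy3, with no dye swap. Values are log2 ratios of lung to reference unless a sentence names another scale, so a level describes a gene against that reference only, and dye bias in a level cannot be told apart from the level.

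Pulmonary surfactant is a film of phospholipid and protein that lowers surface tension in the alveoli, and it is made, stored in lamellar bodies, secreted and taken up again by alveolar type 2 cells. SP-B and SP-C are small hydrophobic proteins that help the lipid film form and spread, whereas SP-A and SP-D are secreted collectins, sugar-binding proteins of innate defence that coat microbes and particles and also take part in surfactant turnover. The remaining genes encode the machinery of the type 2 cell: a lipid pump and a membrane protein of lamellar bodies, a protease that processes the hydrophobic precursors, and a phosphate transporter of the apical membrane.

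Positions are those of the mouse assembly GRCm38.p6. The collectin genes Sftpa1 (chromosome 14, 41131788 to 41136373) and Sftpd (chromosome 14, 41172212 to 41185198) are neighbours. Sftpc lies elsewhere on chromosome 14 (70520941 to 70524081) and Sftpb on chromosome 6 (72304610 to 72314373). Abca3 lies on chromosome 17 (24351921 to 24410204), Lamp3 on chromosome 16 (19653381 to 19706365), Napsa on chromosome 7 (44572445 to 44586846), Slc34a2 on chromosome 5 (53049353 to 53071664) and Lpcat1 on chromosome 13 (73467231 to 73516420).

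Sftpa1 and Sftpb are known targets of NKX2-1, a transcription factor of the lung epithelium whose sites often hold the core CTCAAG. The 250 bases before the RefSeq start of each gene are shown because this core occurs in them, with the core in capitals and each sequence read 5′ to 3′ on the plus strand of GRCm38.p6. The Sftpa1 stretch is chr14:41131538-41131787 and the Sftpb stretch chr6:72304360-72304609.
Sftpa1: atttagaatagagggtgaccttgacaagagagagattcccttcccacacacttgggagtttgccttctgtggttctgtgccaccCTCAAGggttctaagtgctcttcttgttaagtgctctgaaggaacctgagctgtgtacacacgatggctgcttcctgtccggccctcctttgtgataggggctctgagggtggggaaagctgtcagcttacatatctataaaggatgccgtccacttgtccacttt
Sftpb: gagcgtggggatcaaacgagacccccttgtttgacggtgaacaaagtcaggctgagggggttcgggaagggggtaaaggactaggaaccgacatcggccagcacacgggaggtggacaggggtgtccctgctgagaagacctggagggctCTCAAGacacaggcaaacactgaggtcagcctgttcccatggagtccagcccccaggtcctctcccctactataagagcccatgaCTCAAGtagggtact
The core began 166 bases before the Sftpa1 start, and 100 and 15 bases before the Sftpb start. Promoter sequences were at hand for 6 of the 9 genes, and 2 of these 6 held CTCAAG on either strand. Of all 32851 promoters of this length, 4378 (13.3%) held it and 328 (0.998%) held it 2 or more times. A match of letters is a description and does not show that the factor was bound.

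All 14 probes of the 8 genes were well above background in the lung channel on 69 of 69 arrays. Sftpc, the most specific of them, reached 471400 to 713900 scanner units, which was 60.5% to 91.6% of the scanner's limit, and no spot was saturated. In the reference channel the genes were far dimmer, and the Sftpd spot read 51 to 203.5 units there. Of the 3 Lamp3 probes, 1 was well above background in the reference on 1 array and another on 3 arrays, so those ratios rest on a denominator near background. One of the 3 Abca3 probes passed in the reference on 32 arrays.

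Across the series, 18 slides held the 69 arrays, 61.4% to 87.8% of spots were well above background in the lung channel, and the number of arrays limits the precision of each mean. The median correlation of an array with the others was 0.852 to 0.974, with 4 arrays under 0.9. Slides carried much of the spread of these genes. Of the variance within groups, differences between slides held 83.8% for Sftpa1, 66.0% for Sftpb, 87.7% for Sftpc, 72.9% for Sftpd, 85.9% for Abca3, 72.7% for Lamp3, 76.3% for Napsa and 76.3% for Slc34a2, beside a median of 61.6% over all genes and 30.9% if slides made no difference. The ratios at 162 µg on day 1 are therefore also given against the vehicle array of the same slide. Such pairs exist for 3 of 5 NRCWE-001 mice (replicates 1 to 3) and 2 of 5 NRCWE-002 mice (replicates 1 and 3), and they leave out replicate 5 of both particles.

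The first question was whether either particle changed the expression of these genes at any dose or time. In the log2 ratio, none of the 8 genes passed the threshold of an adjusted p of 0.05 in limma in any comparison. On day 1, 0 of 8 were called at 18, 54 and 162 µg of NRCWE-001, beside 0%, 0% and 0.578% of all genes tested, and 0 of 8 at the same doses of NRCWE-002, beside 0%, 0.0624% and 0.595%. On day 28 the count was again 0 of 8 at each dose, beside 0.193%, 0% and 0.0454% of all genes with NRCWE-001 and 0%, 0% and 0.00567% with NRCWE-002. The test of all 3 doses together called 0 of 8 on day 1, beside 0.697% of genes (NRCWE-001) and 0.822% (NRCWE-002), and 0 of 8 on day 28, beside 0.476% and 0%. With so few genes called in all, a count of 0 among 8 says little about these genes in particular. Of the 96 tests of a gene at a dose, 3 had an unadjusted p under 0.05, and the share of all genes with such a p was 2.9% to 8.93% by comparison. The median confidence interval of a member reached 0.37 to either side on the log2 scale before any adjustment for the number of genes. A gene with an interval of this width needs a larger change than this to be called. Intervals were narrower for some genes, such as Sftpb and Abca3.

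**Figure D1:**
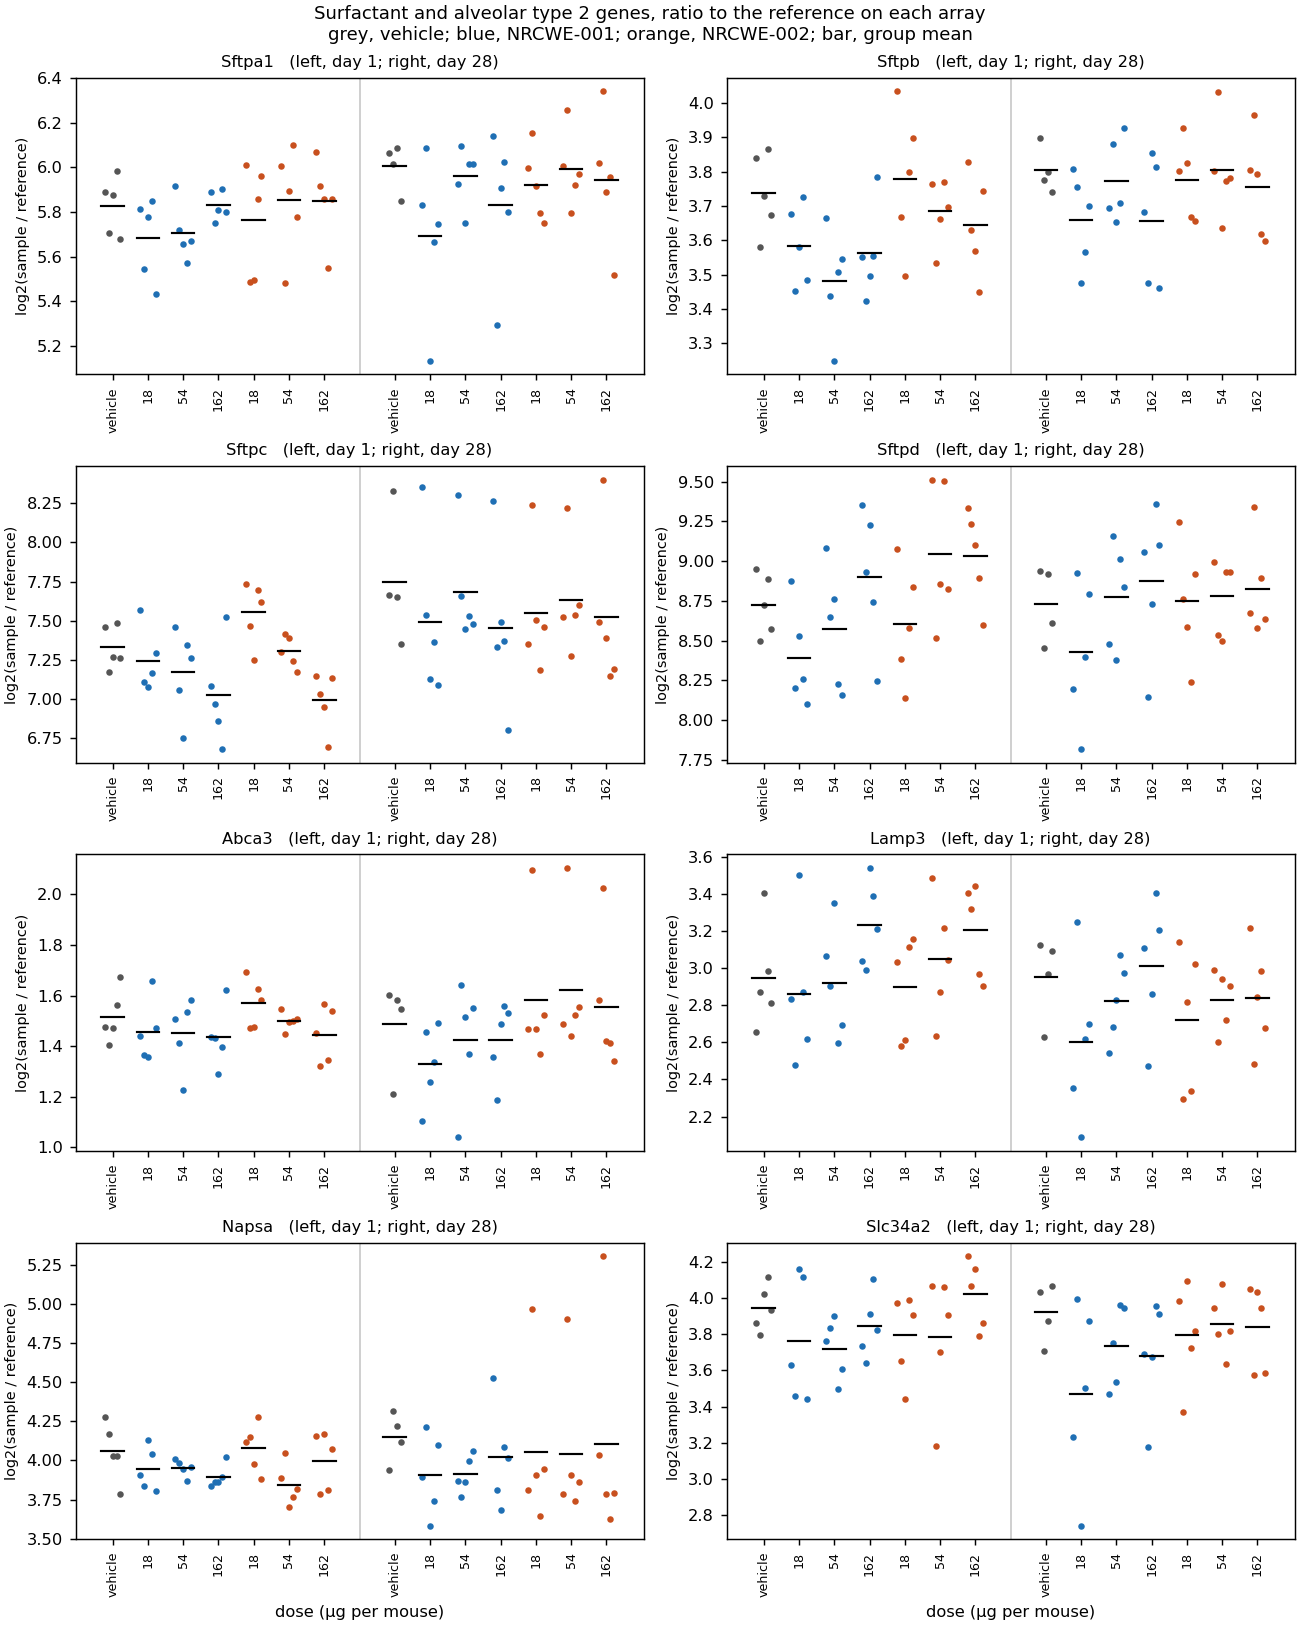
Log2 ratio of lung to reference RNA (vertical axis) for each of the 8 measured genes, on every array, by dose in µg per mouse (horizontal axis), with day 1 on the left and day 28 on the right of each panel. Points are mice, bars are group means, and colours are vehicle (grey), NRCWE-001 (blue) and NRCWE-002 (orange). Exposed and vehicle mice overlap in most groups, while all 5 Sftpc values at 162 µg of NRCWE-002 on day 1 lie below the 5 vehicle values. The share of all genes that separate in this way was not computed.

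The lowest and highest of the 14 group means are given as a description, because such a range grows with the number of groups and tests no difference. It exceeded the pooled SD within groups in 7 of the 8 genes, the exception being Napsa. Sftpa1 group means ran from 5.68 (NRCWE-001, 18 µg, day 1) to 6.00 (vehicle, day 28), with a pooled SD of 0.21 within groups. For Sftpb they ran from 3.48 (NRCWE-001, 54 µg, day 1) to 3.81 (NRCWE-002, 54 µg, day 28), with an SD of 0.14. Sftpc spanned 6.99 (NRCWE-002, 162 µg, day 1) to 7.75 (vehicle, day 28), with an SD of 0.35, and Sftpd spanned 8.39 (NRCWE-001, 18 µg, day 1) to 9.04 (NRCWE-002, 54 µg, day 1), with an SD of 0.36. Among the machinery genes, Lamp3 ranged from 2.60 to 3.23 (SD 0.31), Slc34a2 from 3.47 to 4.02 (SD 0.27), Napsa from 3.85 to 4.15 (SD 0.31) and Abca3 from 1.33 to 1.62 (SD 0.18). In each of the 8 orders, neighbouring group means lay closer together than the pooled SD, which 14 ordered means mostly do whether or not groups differ.

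SP-B and SP-C, the hydrophobic proteins, had lower values at the high dose on day 1 that did not pass the threshold in the ratio as fitted. Sftpc ratios of the vehicle mice on day 1 were 7.46, 7.17, 7.27, 7.49 and 7.26. At 162 µg of NRCWE-001 they were 7.09, 6.97, 6.86, 6.68 and 7.52, and at 162 µg of NRCWE-002 they were 7.15, 7.03, 6.95, 6.69 and 7.13. For Sftpc all 5 NRCWE-002 mice and 4 of 5 NRCWE-001 mice lay below every vehicle mouse. The share of all genes with such counts in the ratio was not computed, here or for the genes that follow. In the lung channel, 3.65% of all genes had every mouse at 162 µg of NRCWE-002 above every vehicle mouse on day 1. That is the opposite direction on another scale, so it gives no share for the Sftpc counts. The differences were -0.34 for NRCWE-002 (95% confidence interval -0.77 to 0.09, unadjusted p = 0.122, adjusted p = 0.727) and -0.31 for NRCWE-001 (-0.74 to 0.13, adjusted p = 0.943). Against the vehicle of the same slide, all 5 available pairs were lower, with differences of -0.41 to -0.20 on the 3 slides of NRCWE-001 and of -0.34 and -0.31 on the 2 slides of NRCWE-002. With slide as a block the differences were -0.29 (unadjusted p = 0.00549, adjusted p = 0.0875) and -0.30 (adjusted p = 0.167). With scan day as a block, Sftpc was called at 162 µg of NRCWE-002 (-0.36, adjusted p = 0.0476) and over the 3 doses (adjusted p = 0.0115). The share of all genes called with this block was not computed. The test over the 3 doses gives no direction. At 18 µg of NRCWE-002 on day 1, Sftpc was 0.22 higher than vehicle in the fit without a block. In the 2 same-slide pairs at 18 µg it was 0.25 and 0.36 higher. On day 28 the values at 162 µg were -0.30 for NRCWE-001 (-0.76 to 0.16) and -0.23 for NRCWE-002 (-0.68 to 0.23). Against the vehicle of the same slide they were smaller, at -0.07 in 1 NRCWE-001 pair and at -0.18 and 0.04 in 2 NRCWE-002 pairs. Sftpc read 8.22 to 8.40 on slide 4 and 8.26 to 8.35 on slide 6, against 6.68 to 7.73 on the other slides. Slide 6 held a vehicle mouse of day 28.

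Sftpb, which encodes SP-B, read 3.84, 3.58, 3.73, 3.87 and 3.67 in the vehicle mice of day 1. It read 3.67, 3.44, 3.25, 3.51 and 3.55 at 54 µg of NRCWE-001, where 4 of 5 mice lay below every vehicle mouse, and 3.55, 3.42, 3.50, 3.56 and 3.78 at 162 µg, where 4 of 5 did as well. The difference at 54 µg, -0.26 (-0.43 to -0.08), had the smallest unadjusted p of the 96 tests (0.00565), and its adjusted p was 0.748. At 162 µg it was -0.18 (-0.35 to 0.00, unadjusted p = 0.054) for NRCWE-001 and -0.09 (-0.27 to 0.09) for NRCWE-002. On the same slide, Sftpb was lower than the vehicle in 3 of 3 pairs at 162 µg of NRCWE-001 (-0.29 to -0.16) and in 2 of 2 of NRCWE-002 (-0.10 and -0.04). On day 28 the differences were -0.15 (-0.34 to 0.04) and -0.05 (-0.24 to 0.14).

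Neither collectin gene was called in the ratio. Sftpa1, which encodes SP-A, differed from vehicle at 162 µg on day 1 by 0.00 (-0.26 to 0.27) for NRCWE-001 and 0.02 (-0.24 to 0.29) for NRCWE-002. On day 28 these were -0.17 (-0.45 to 0.11) and -0.06 (-0.34 to 0.22). The same-slide differences of day 1 ran from -0.065 to 0.046 in 3 NRCWE-001 pairs and were 0.085 and 0.18 in 2 NRCWE-002 pairs. The 2 Sftpa1 probes, both to the same transcript, correlated at 0.05 over the 69 arrays. The A_51_P129491 probe differed by 0.07 and 0.03 at 162 µg on day 1 and the A_52_P24439 probe by -0.06 and 0.02.

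Sftpd, which encodes SP-D, read 8.95, 8.50, 8.72, 8.89 and 8.57 in vehicle mice of day 1. The ratios were 9.35, 8.93, 9.23, 8.74 and 8.25 at 162 µg of NRCWE-001, and 9.33, 9.23, 9.10, 8.90 and 8.60 at 162 µg of NRCWE-002. The groups overlapped, with 2 of 5 and 3 of 5 exposed mice above every vehicle mouse, and the differences were 0.17 (-0.27 to 0.62) and 0.31 (-0.14 to 0.75), adjusted p = 0.999 and 0.789. Sftpd was higher than in the vehicle mouse of the same slide in 5 of 5 pairs at 162 µg, by 0.40, 0.43 and 0.51 for NRCWE-001 and by 0.45 and 0.53 for NRCWE-002. The 5 mice without such a pair include replicate 5 of each particle, the lowest of its group (8.25 and 8.60).

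**Figure D2:**
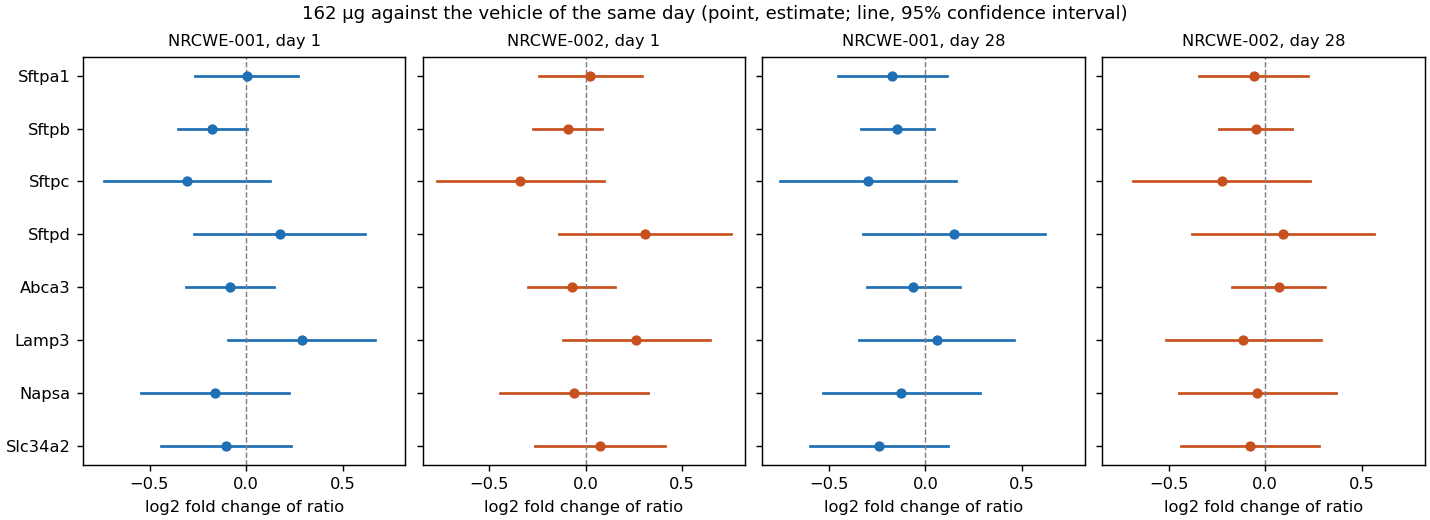
Difference in log2 ratio between 162 µg and the vehicle of the same day (horizontal axis) for each of the 8 genes, in 4 panels by particle and day. Points are limma estimates and lines their 95% confidence intervals, and each interval spans 0 in every panel, with the lowest estimate at -0.34 for Sftpc and NRCWE-002 on day 1.

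Among the lamellar body genes, Lamp3 had higher values at 162 µg on day 1 without passing the threshold, and Abca3 did not. Lamp3, a lysosome-associated protein of the lamellar body membrane, read 2.66, 2.87, 3.40, 2.99 and 2.81 in vehicle mice of day 1. It read 3.04, 2.99, 3.54, 3.39 and 3.21 at 162 µg of NRCWE-001 and 3.40, 3.32, 3.44, 2.97 and 2.90 at 162 µg of NRCWE-002, with 1 of 5 mice above every vehicle in each. The differences were 0.29 (-0.09 to 0.67) and 0.26 (-0.12 to 0.64), neither called. All 5 same-slide pairs were higher, by 0.12 to 0.38 (NRCWE-001) and by 0.42 and 0.63 (NRCWE-002), and with slide as a block the NRCWE-001 difference was 0.37 (adjusted p = 0.0946). Its 3 probes differed by 0.29, 0.27 and 0.19 for NRCWE-001 and by 0.26, 0.33 and 0.43 for NRCWE-002, and the last of these is the probe whose reference spot was well above background on every array. On day 28 the values were 0.06 (-0.35 to 0.46) and -0.11 (-0.52 to 0.29). The 3 probes then differed by 0.06, -0.21 and 0.21 for NRCWE-001 and by -0.11, -0.18 and -0.24 for NRCWE-002. At 162 µg the Lamp3 differences were those of probe A_51_P239376, the middle of the 3. Its reference spot was well above background on 1 array.

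Abca3, the pump that loads phospholipid into lamellar bodies, differed at 162 µg on day 1 by -0.08 (-0.31 to 0.15) and -0.07 (-0.30 to 0.15). Its 3 probes correlated at -0.12 to 0.30 with one another, and they differed by 0.07, -0.26 and -0.08 for NRCWE-001 and by 0.11, -0.25 and -0.07 for NRCWE-002. Napsa, the aspartic protease that processes the SP-B and SP-C precursors, differed by -0.16 (-0.55 to 0.22) and -0.06 (-0.44 to 0.33). Slc34a2, the sodium-dependent phosphate transporter of type 2 cells, differed by -0.10 (-0.44 to 0.24) and 0.08 (-0.26 to 0.41). Against the vehicle of the same slide, Abca3 differed by -0.18 to 0.03 for NRCWE-001 and by -0.11 in both NRCWE-002 pairs. Napsa was lower in 3 of 3 NRCWE-001 pairs (-0.44 to -0.17) and higher in 2 of 2 NRCWE-002 pairs (0.13 and 0.38), and Slc34a2 was likewise lower in the first (-0.15 to -0.11) and higher in the second (0.11 and 0.22). None of these 3 genes was called on day 28 either, where the 6 differences at 162 µg ran from -0.24 (Slc34a2, NRCWE-001) to 0.07 (Abca3, NRCWE-002).

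The low dose of NRCWE-001 on day 28 gave the lowest median of the 8 genes, -0.28, with all 8 below the vehicle mean, beside a median of -0.01 over all genes. Slc34a2 read 4.03, 3.71, 3.87 and 4.07 in the 4 vehicle mice of day 28 and 3.23, 4.00, 2.74, 3.51 and 3.87 at 18 µg, a difference of -0.45 (-0.81 to -0.09, unadjusted p = 0.0148, adjusted p = 0.438). Sftpa1 read 6.06, 6.02, 6.09 and 5.85 in those vehicle mice and 5.83, 6.09, 5.13, 5.66 and 5.75 at 18 µg, a difference of -0.31 (-0.59 to -0.03, unadjusted p = 0.031). Below every vehicle mouse were 3 of 5 exposed mice for Slc34a2 and 4 of 5 for Sftpa1. In both genes replicate 3 of the exposed mice was the lowest and replicate 2 lay within or above the vehicle range. Replicate 3 was on slide 11, which held no vehicle mouse, and its mean over the other type 2 markers was 2.93. The other mice of that slide read 3.09 (NRCWE-001, 162 µg, day 28) and 3.255 (NRCWE-002, 18 µg, day 1), beside 3.73 to 3.98 in vehicle mice of day 28. In the 2 same-slide pairs the differences were -0.19 and 0.001 for Sftpa1 and -0.47 and 0.12 for Slc34a2. Slide and dose could not be told apart in replicate 3. All 8 genes were also below the vehicle mean at 18 and 54 µg of NRCWE-001 on day 1, with medians of -0.13 and -0.14. The other 9 medians lay between -0.14 and -0.01, and the 8 genes are not independent of each other, because they come from the same mice. Other lists were low at 18 µg of NRCWE-001 on day 28 too. The 13 other type 2 markers had a median of -0.46 (1 of 13 above 0), 8 lymphocyte markers of -0.38 and 8 endothelial markers of -0.29 (0 of 8 above 0 in both), none of these genes being called, while 8 cardiac muscle genes had a median of 1.098. The part of this mix of cells in the surfactant values was not tested.

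The next question was whether charge changed the response. For each day, limma compared the average of the 3 charged-particle groups with that of the 3 uncharged ones. Of the 8 genes, 0 were called on day 1 and 0 on day 28, beside 0.125% and 4.75% of all genes, and 2 had an unadjusted p under 0.05 on each day, beside 7.32% and 22.2% of all genes. Sftpb on day 1 was 0.16 higher with the charged particle (0.06 to 0.26, unadjusted p = 0.00282, adjusted p = 0.326), and Sftpd on day 1 was 0.27 higher (0.01 to 0.53, adjusted p = 0.666). Abca3 on day 28 came closest, 0.20 higher (0.06 to 0.33, unadjusted p = 0.00419, adjusted p = 0.0649). With slide as a block the Abca3 difference was 0.01 (unadjusted p = 0.864). Its A_52_P91265 probe read 2.03 to 2.11 on slide 4, which held replicate 2 of each NRCWE-002 group of day 28, against 1.19 to 1.69 on slides other than 4 and 6, and its A_51_P443082 probe read 1.04 to 1.36 on slide 6, which held vehicle and NRCWE-001 mice of day 28, against 2.28 to 3.17 on slides other than these. Slide and particle could thus not be told apart in those arrays.

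For time, the vehicle mice of day 28 were compared with those of day 1, and the effect of 162 µg was compared between the days. None of the 8 genes was called by limma, beside 0% of all genes called in the vehicle comparison and 0% and 0% for the change in effect of either particle. In limma, 0 of the 8 had an unadjusted p under 0.05 in any of these comparisons. The share of all genes with such a p was 5.77% in the vehicle comparison. For the change in effect it was 4.34% (NRCWE-001) and 6.7% (NRCWE-002). The largest difference between vehicle groups was Sftpc, 0.42 higher on day 28 (-0.04 to 0.88, unadjusted p = 0.0706). The vehicle mouse on slide 6 read 8.33 while the other 3 of day 28 read 7.35 to 7.67, and with slide as a block the difference was 0.04.

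Because every array carries the same reference RNA, the reference spot of a gene should not follow the lung RNA, and this was checked. Over the 69 arrays, each taken as a deviation from the mean of its slide, lung and reference channels of Sftpa1 correlated at 0.90, those of Sftpb at 0.89 and those of Sftpd at 0.89. The median over all genes was 0.26, and 0.565% of 17525 genes reached the Sftpa1 value and 0.622% the Sftpb and Sftpd values. Slc34a2 stood at 0.71, Napsa at 0.36, Lamp3 at 0.32, Abca3 at 0.13 and Sftpc at 0.02. The Sftpc value says nothing, because the quantile normalization used for the single channels sets its lung channel to nearly one value (19.15 on the log2 scale in every vehicle mouse of day 1). Where both channels of a gene move together, the ratio removes the part they share, whatever its source, and the lung channel alone keeps it. The cause was not tested. For these genes the lung channel was therefore read on its own, after quantile normalization between arrays, and the choice to dwell on Sftpd was made after its values were seen.

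**Figure D3:**
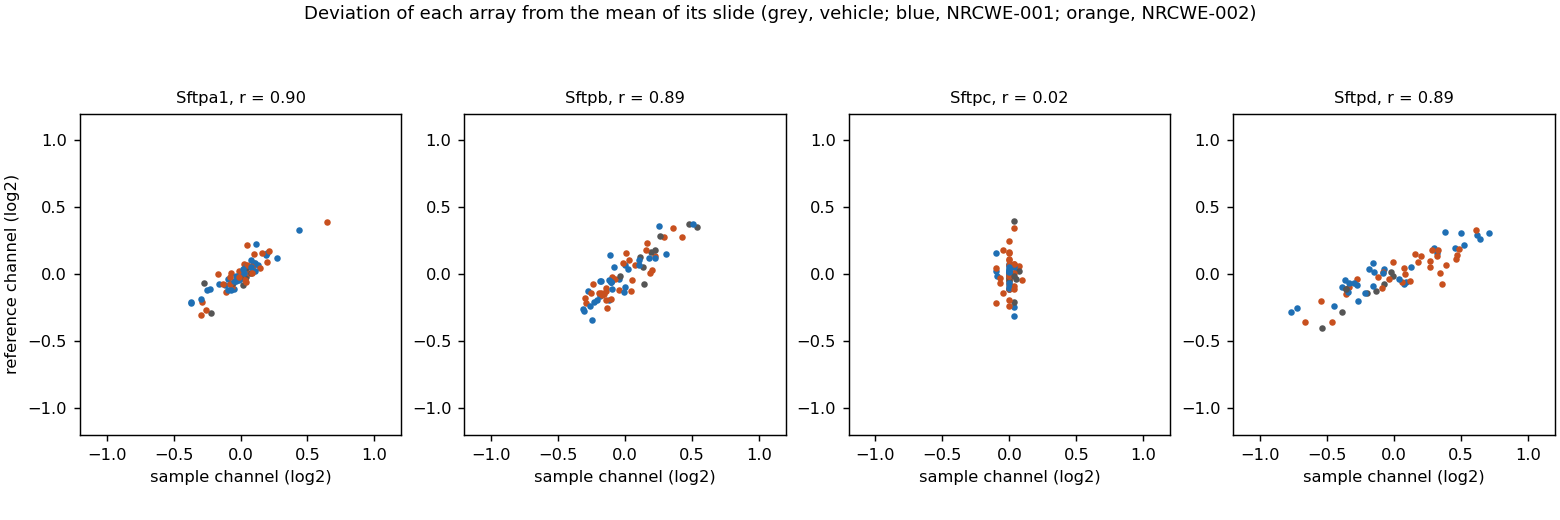
Deviation of each array from the mean of its slide, in log2 units, in the lung (sample) channel (horizontal axis) and the reference channel (vertical axis), both after quantile normalization, for the 4 surfactant protein genes. Points are arrays, coloured as vehicle (grey), NRCWE-001 (blue) and NRCWE-002 (orange), and the r in each title is 0.90, 0.89, 0.02 and 0.89. The reference channel follows the lung channel for Sftpa1, Sftpb and Sftpd, while the lung channel of Sftpc has almost no spread left on this scale.

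Sftpd was brighter in the lung channel at the higher doses on day 1. Before any normalization its spot read 67559, 75511, 62968, 69276 and 74988 units in the 5 vehicle mice. At 162 µg of NRCWE-001 it read 146783, 138468, 169399, 134707 and 70482 units, and at 162 µg of NRCWE-002 it read 122920, 162867, 184460, 117943 and 73669 units. In each of these groups 4 of 5 mice were above the vehicle range, while replicate 5 read like a vehicle mouse. At 54 µg the units were 137741, 105744, 140066, 65331 and 72718 (NRCWE-001) and 123856, 86317, 116081, 156603 and 100273 (NRCWE-002). At 18 µg they stayed between 53228 and 89100 units for NRCWE-001 and between 54532 and 77398 for NRCWE-002, around the vehicle values.

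After quantile normalization, Sftpd rose 1.64-fold in the lung channel at 162 µg of NRCWE-002 (log2 difference 0.71, 0.30 to 1.12, adjusted p = 0.0466), the only one of the 8 genes called there, beside 2.15% of all genes. Without any 1 of the 5 vehicle mice or of NRCWE-002 replicates 1 to 4 this call was lost (adjusted p 0.0624 to 0.161), and without replicate 5 the difference was 0.89 (adjusted p = 0.00657). At 162 µg of NRCWE-001 the difference was 0.68 (0.27 to 1.09), or 1.60-fold, with an adjusted p of 0.0712 and 0 of 8 genes called, beside 1.6% of all genes, and without its replicate 5 it was 0.86 (adjusted p = 0.00657). At 54 µg NRCWE-001 gave 0.37 (adjusted p = 0.775) and NRCWE-002 gave 0.71 (adjusted p = 0.127), with 0 of 8 genes called, beside 0.034% and 0.351% of all genes. The numbers of the 8 genes with an unadjusted p under 0.05 in limma were 2 and 2 at 162 µg, beside 11.1% and 14.3% of all genes for NRCWE-001 and NRCWE-002, and 0 and 1 at 54 µg, beside 6.85% and 11.3%. The test over 3 doses gave Sftpd an adjusted p of 0.0538 with the uncharged and 0.0172 with the charged particle. At 54 µg of NRCWE-002 all 5 mice lay above every vehicle mouse for Sftpd, 1 of 8 genes, beside 1.39% of all genes. No member separated in this way at 54 µg (0 of 8, beside 1.72%) and 162 µg (0 of 8, beside 2.17%) of NRCWE-001 or at 162 µg of NRCWE-002 (0 of 8, beside 3.65%).

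Slides were then taken into account. With slide as a block, a setting chosen after the data were seen, the Sftpd difference in the lung channel at 162 µg was 0.79 for NRCWE-001 (adjusted p = 0.0197, 1.73-fold) and 0.73 for NRCWE-002 (adjusted p = 0.0975). At 54 µg it was 0.48 (adjusted p = 0.259) and 0.84 (adjusted p = 0.034). The counts of genes called in that setting were 2 of 8 at 162 µg of NRCWE-001 (Sftpd, and Sftpb at -0.48 with an adjusted p of 0.0461), beside 4.07% of all genes, 0 of 8 at 162 µg of NRCWE-002, beside 1.73%, 0 of 8 at 54 µg of NRCWE-001, beside 1.04%, and 1 of 8 at 54 µg of NRCWE-002 (Sftpd), beside 1.68%. Against the vehicle mouse of the same slide, Sftpd in the lung channel was higher in 10 of 10 pairs at 54 and 162 µg, by 0.52 to 1.16 for NRCWE-001 and by 0.56 to 0.98 for NRCWE-002. These pairs rest on 5 vehicle mice, each used at both doses, and leave out the 4 exposed mice of these doses that read within the vehicle range (replicate 5 of both particles at 162 µg, and replicates 4 and 5 at 54 µg of NRCWE-001), whose slides held no vehicle mouse of day 1. When arrays were instead centred on their medians, the differences at 162 µg were 0.73 and 0.85 with adjusted p of 0.526 and 0.262, so the call depends on the scaling while the direction does not. In bulk tissue, more RNA per cell and more cells of a type cannot be told apart. Whether the brighter lung channel reflects more Sftpd RNA, or variation shared by both channels, was not tested.

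**Figure D4:**
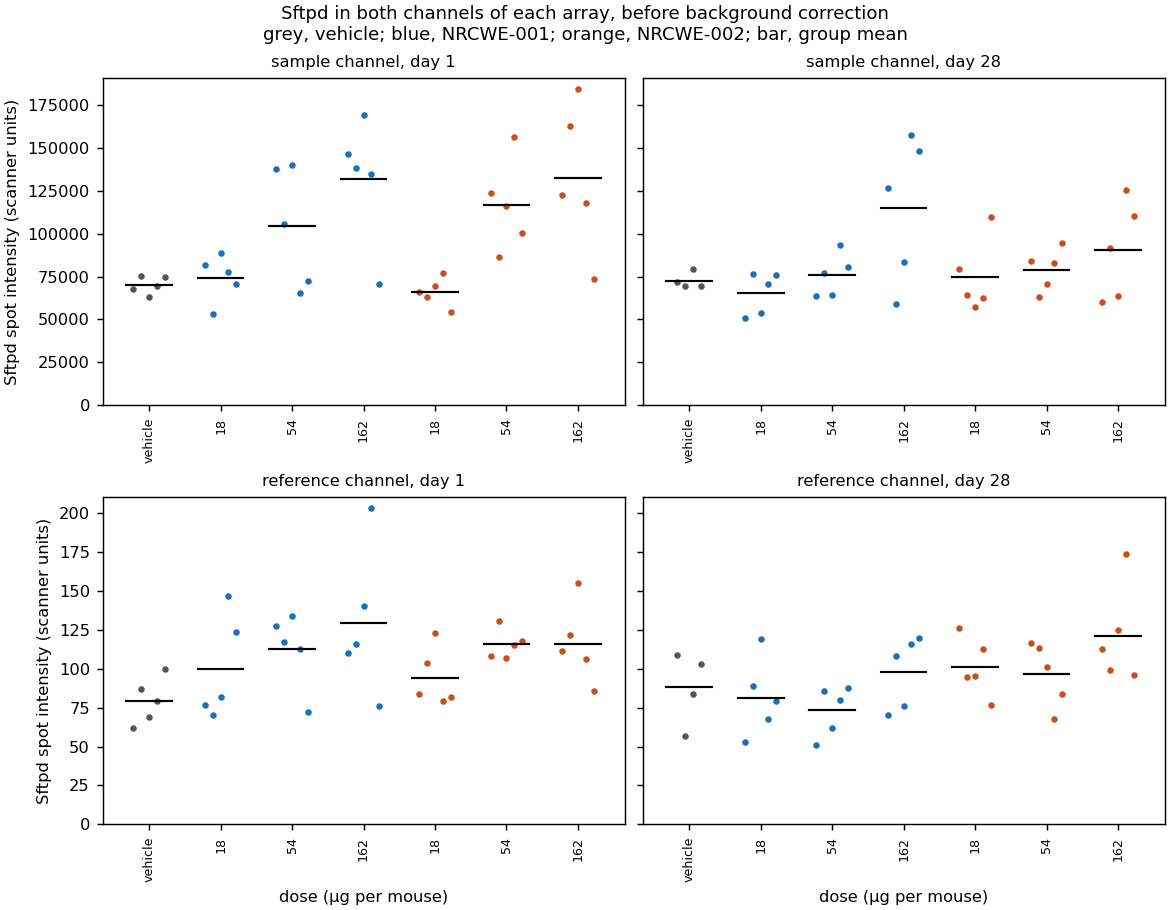
Intensity of the Sftpd spot in scanner units, before background correction, in the lung (sample, upper) and reference (lower) channel, by dose in µg per mouse, on day 1 (left) and day 28 (right). Points are mice and bars are group means, for vehicle (grey), NRCWE-001 (blue) and NRCWE-002 (orange). On day 1 the lung channel is 62968 to 75511 units in vehicle mice and above that range in 4 of 5 mice at 162 µg of each particle, and the reference channel, read at 51 to 203.5 units over the series, is higher too.

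The reference spot of Sftpd was higher in the same groups. It read 62, 87, 69, 79.5 and 100 units in vehicle mice of day 1, 110, 116, 140.5, 203.5 and 76 units at 162 µg of NRCWE-001, and 111.5, 121.5, 155, 106 and 86 units at 162 µg of NRCWE-002. Its log2 difference at 162 µg was 0.46 (adjusted p = 0.238) and 0.44 (adjusted p = 0.606). Replicate 5 was the lowest of its group in both channels and both particles.

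On day 28 Sftpd in the lung channel read 71712, 69658, 79566 and 69449 units in vehicle mice. It read 126581, 59122, 83346, 157866 and 148184 units at 162 µg of NRCWE-001 and 60151, 91566, 63580, 125858 and 110674 units at 162 µg of NRCWE-002, so the groups overlapped. The differences were 0.59 (adjusted p = 0.29) and 0.26 (adjusted p = 0.913). The effect of 162 µg on the lung channel was 0.08 lower on day 28 than on day 1 for NRCWE-001 and 0.45 lower for NRCWE-002, with adjusted p of 0.962 and 0.757.

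The other genes in the lung channel were read in the same way. At 162 µg on day 1, Sftpa1 differed by 0.19 (adjusted p = 0.678) and 0.29 (adjusted p = 0.226), and Sftpb by -0.33 (adjusted p = 0.398) and -0.17 (adjusted p = 0.742). Lamp3 differed by 0.25 and 0.34, Napsa by -0.13 and -0.09, Abca3 by -0.06 and -0.08, and Slc34a2 by -0.03 and 0.08, none of them called. Sftpc could not be read this way, for the reason given above.

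Members varied together across mice to different degrees, given here as descriptions over 69 arrays that share the reference RNA and, in sets, a slide. Lamp3 and Slc34a2 correlated at 0.78 (0.63 within slides), Sftpa1 and Sftpb at 0.74 (0.47), and Sftpb and Sftpc at 0.66 (0.84). Sftpd went with Lamp3 (0.61, and 0.57 within slides) but not with Sftpc (-0.04 and -0.19), and Sftpc and Lamp3 ran against each other (-0.40 and -0.26). The 6 other genes most like the mean of the 8 were Smim22 (0.82), Hc (0.79), Serping1 (0.77), C1qtnf5 (0.76), Gpsm3 (0.74) and Ppp1r14a (0.74). The single closest gene was Serping1 for Sftpa1 (0.87), Cyp4b1 for Sftpb (0.82), Cbr2 for Sftpc (0.91) and Cxcl16 for Sftpd (0.82), and within slides these were 0.54, 0.73, 0.86 and 0.70.

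Related gene lists place these values in the lung as a whole. None of 13 other type 2 cell markers, 11 transcription factors of the distal epithelium and 15 genes of phosphatidylcholine and fatty acid supply was called at any dose. At 162 µg on day 1 the medians of the other type 2 markers were 0.02 and 0.045, beside -0.09 and -0.02 for the 8 surfactant genes. Etv5, a transcription factor that maintains type 2 cells, had the smallest p of the first 2 lists at 162 µg. It was lower than vehicle in each of the 6 comparisons of day 28, which share their vehicle mice, by -0.53 to -0.32, with adjusted p of 0.0592 to 0.97. Pcyt1a, the rate-limiting enzyme of phosphatidylcholine synthesis, differed by -0.23 at 162 µg of NRCWE-002 on day 1 (adjusted p = 0.299).

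Among 13 genes of surfactant processing, uptake and clearance, 1 was called. Abcg1, a cholesterol exporter of alveolar macrophages, fell by 0.89 on the log2 scale at 162 µg of NRCWE-001 on day 1 (adjusted p = 0.0244), and its value for NRCWE-002 was -0.79 (adjusted p = 0.0608). The list as a whole had medians of 0.00 and 0.045 at this dose, with 7 of 13 genes above 0 for each particle. Of 10 genes known to rise in type 2 cells under damage, 2 were called. Lcn2, an iron-binding defence protein that neutrophils also hold, rose at 162 µg on day 1 by 2.75 with NRCWE-001 (adjusted p = 0.014) and by 3.02 with NRCWE-002 (adjusted p = 0.00718), and Lrg1 rose by 1.04 at 162 µg of NRCWE-002 (adjusted p = 0.0155) and stood at 0.80 with NRCWE-001 (adjusted p = 0.112). Of 11 type 1 cell markers 1 was called, Pdpn, a membrane glycoprotein of type 1 and other cells, which rose at the same dose by 0.68 (adjusted p = 0.00669) and 0.58 (adjusted p = 0.0305), whereas the list had medians of -0.19 and -0.13, with 2 of 11 and 1 of 11 genes above 0.

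Markers of other cells moved at the same dose. Of 8 neutrophil markers, 3 were called at 162 µg of NRCWE-001 on day 1 (Il1r2 at 1.00, Cxcr2 at 0.69 and Csf3r at 0.80), none was called at that dose of NRCWE-002, and their medians were 0.67 and 0.59. The mean of this list per mouse was 1.35 to 1.74 in vehicle mice, 2.73, 1.86, 2.41, 2.54 and 1.54 at 162 µg of NRCWE-001, and 2.16, 2.43, 1.71, 2.06 and 2.03 at 162 µg of NRCWE-002. Replicate 5 of NRCWE-001 was the lowest in this list and in Sftpd, while with NRCWE-002 the lowest in this list was replicate 3, which had the highest Sftpd intensity. Of 8 alveolar macrophage markers 1 was called, Siglecf, which fell by 0.92 at 162 µg of NRCWE-001 (adjusted p = 0.0498) and stood at -0.84 with NRCWE-002 (adjusted p = 0.0868). The medians of the macrophage list were -0.18 (3 of 8 above 0) and 0.16 (5 of 8 above 0). No marker of club (7 genes), ciliated, endothelial, fibroblast, lymphocyte or cardiac muscle cells (8 genes each) was called. The genes with the smallest p of these lists at 162 µg were Cbr2 of club cells (-0.53, adjusted p = 0.198) and Dcn of fibroblasts (-0.61, adjusted p = 0.496) with NRCWE-002 on day 1, and Cd79b of lymphocytes (-0.33, adjusted p = 0.988) with NRCWE-001 on day 1. On day 28 they were Tppp3 of ciliated cells (-0.41, adjusted p = 0.43) and Pecam1 of endothelium (-0.63, adjusted p = 0.284) with NRCWE-001, and Nppa of cardiac muscle (1.76, adjusted p = 0.64) with NRCWE-002. The cardiac median reached 1.81 at 162 µg of NRCWE-002 on day 28, where the mean of the list was 1.91 to 3.78 in all 5 mice and 0.38 to 2.57 in the vehicle mice. The part of these cells in the values of the surfactant genes was not tested.

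**Figure D5:**
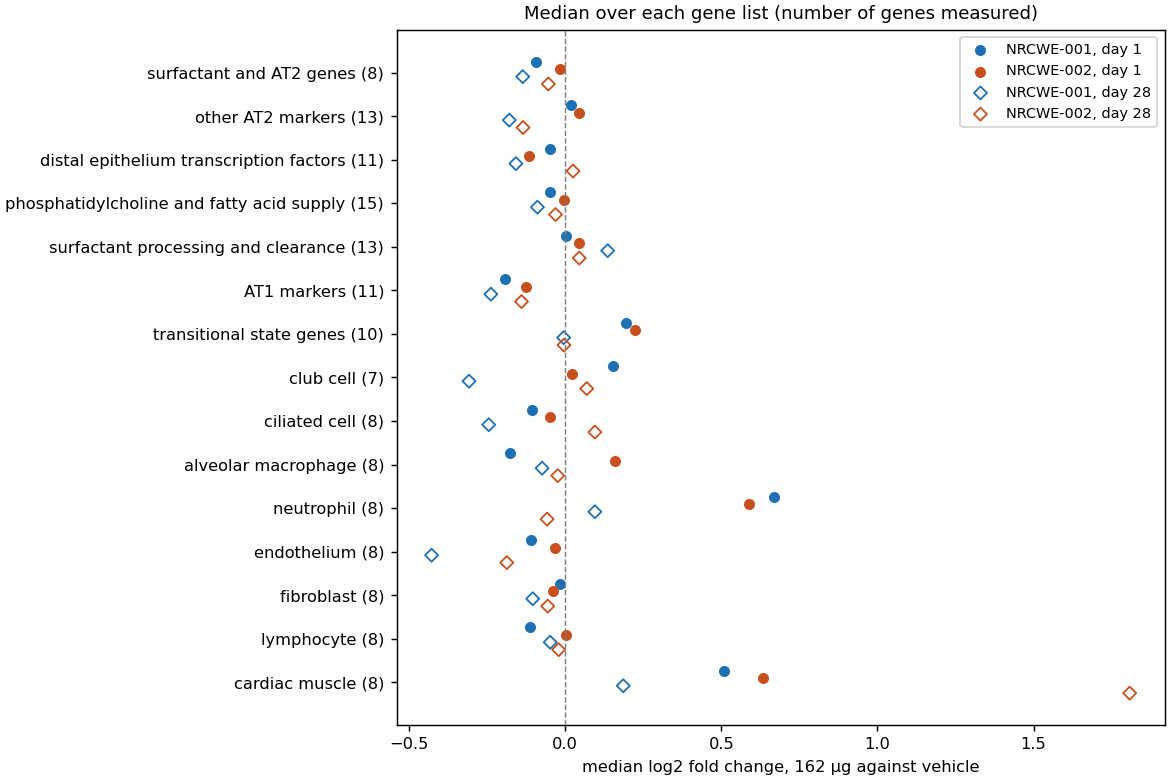
Median log2 difference between 162 µg and the vehicle of the same day (horizontal axis) over each of 15 gene lists, with the number of genes measured in brackets. Filled circles are day 1 and open diamonds day 28, in blue for NRCWE-001 and orange for NRCWE-002. The surfactant genes lie between -0.14 and -0.02, while the neutrophil list stands at 0.67 and 0.59 on day 1 and the cardiac muscle list at 1.81 for NRCWE-002 on day 28.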

How the data were processed

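Lung RNA of 69 mice was hybridized against a common reference on 2-colour Agilent mouse arrays. Per the labels, the authors read the arrays with Agilent Feature Extraction (version and genome build not given in the sources used here). The deposited scanner files hold median spot intensity and background for both channels, on a linear scale and not normalized. The authors' deposited table holds log2 ratios of sample to reference, LOWESS normalized, with correlations of 0.987 to 0.995 per array with the ratios computed here. No deposited column was without a mapped sample (0 columns).

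Spot intensities were normalized and tested in R 4.3.3 with limma 3.58.1. Background was corrected by normexp with an offset of 50, whose curve was fitted without spots of outlying background (beyond 10 median absolute deviations), and arrays were normalized by loess. Control spots and scanner outlier flags (0.243% of spots) were left out. Of 41174 probes, 27479 (66.7%) matched a symbol by accession to RefSeq genes of GRCm38.p6, and 36469 were kept because 4 or more arrays had them well above background in lung RNA. A gene was the median over its probes, which gave 17639 genes. Group means of all 69 arrays were fitted in 1 model, tests were 2-sided, p-values were adjusted by Benjamini-Hochberg over all genes within a comparison, and a gene was called under 0.05. The model was tested on simulated data. These were drawn with independent arrays and no shared slide differences, so that test does not cover the spread between slides seen here.

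All 9 genes were named. From each other list, up to 3 called genes were named, or else the gene with the smallest p at 162 µg, together with the genes most correlated with the mean of the 8 and with each surfactant protein gene. The members and lists were chosen with earlier results of these data known. Alternatives were the deposited ratios, other background correction and scaling, the sample (lung) channel alone, other rules for probes, slide or scan day as a block, and leaving out arrays. Centring of the sample channel and its fits with slide as a block were added after the data were seen.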

Additional observations from a re-analysis of the deposited data

Results flagged for a closer look

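Of 126 sets of 4 or 5 mice (8 genes in the ratio and Sftpd in the lung channel, in 14 groups), 11 held 1 mouse far from the others of its group, and chance alone gives about 1 in 20. Of these 11, 8 were on slides 4 and 6. Replicate 2 of NRCWE-002 on day 28 lay on slide 4 in all 3 doses. There the Napsa ratio was 4.966 at 18 µg (others 3.65 to 3.94), 4.902 at 54 µg (others 3.74 to 3.91) and 5.303 at 162 µg (others 3.62 to 4.03). Abca3 was 2.097 at 18 µg (others 1.37 to 1.52) and 2.105 at 54 µg (others 1.44 to 1.55), and Sftpc was 8.401 at 162 µg (others 7.15 to 7.49). On slide 6, Sftpc was 8.301 at 54 µg of NRCWE-001 on day 28 (others 7.45 to 7.66), and Abca3 was 1.212 in replicate 2 of the vehicle on day 28 (others 1.55 to 1.60).

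Replicate 5 at 162 µg of NRCWE-001 on day 1 stood apart in 2 genes. Its Napsa ratio was 4.022 (others 3.84 to 3.89), and its Sftpd value in the lung channel was 16.102 on the log2 scale (others 16.89 to 17.14). Replicate 3 of the vehicle on day 1 was low for Sftpd in the lung channel, at 15.98 (others 16.19 to 16.25).

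The reference channel, which no comparison of ratios uses alone, held differences between groups although the same RNA was put on each array. In the fit without a block, the Abca3 reference spot was 0.537 higher with NRCWE-002 than with NRCWE-001 on day 28. Abca3 probes stood apart on some slides of that day, as described above, and slide and particle could not be told apart there. The Abca3 value therefore cannot be assigned to the particle. With slide as a block, the Sftpd reference spot was 0.46 higher at 162 µg of NRCWE-001 than in the vehicle on day 1 (adjusted p = 0.0384). The share of all genes called in the reference channel was not computed.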

How the results depend on the processing

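In the ratio, 0 members were called in each of 21 comparisons, and this held with the deposited log2 ratios, without background correction, with the scanner's processed signals, without the filter on dim probes, with the mean over probes or the brightest probe, with slide as a fixed or random block, without the 4 arrays of low correlation and with the sample channel centred on its median, and in the 18 comparisons that could be fitted on the arrays of 1 day. The sample channel alone called 1 member at 162 µg of NRCWE-002 on day 1 and 1 over its 3 doses (Sftpd in both). With slide as a block as well, it called 2 at 162 µg of NRCWE-001 and 1 at 54 µg of NRCWE-002 on day 1, and 1 over the doses of each particle. Centred on the median with the block, it called 1 at 162 µg of NRCWE-001 and 1 over its doses (Sftpd). Scan day as a block called 2 at 162 µg of NRCWE-002 on day 1 (Sftpc at -0.36, adjusted p = 0.0476, and Abca3 at -0.20, adjusted p = 0.0409) and 1 over its doses (Sftpc). Median centring of the ratio called 2 in the comparison of particles on day 28 (Sftpb at -0.23 and Sftpc at -0.41), where the reported values were 0.08 and 0.03. Leaving out 1 array gave 0 to 1 called members, and the 1 was Abca3 in the comparison of particles on day 28 (0.21, adjusted p = 0.0365 to 0.0498), without NRCWE-001 54 µg replicate 2 or NRCWE-002 18 µg replicate 4, 54 µg replicate 3 or 162 µg replicate 5. The cause of these changes was not tested. The share of all genes called was computed for the ratio as fitted. For the sample channel it was computed at 54 and 162 µg on day 1, with and without the slide block. It was not computed for the other settings given here, so their counts of called members cannot be set beside it. Among 32 member differences at 162 µg, 11 changed sign under median centring, 9 with processed signals, 6 in the sample channel, 4 with slide as a fixed block and 2 with the deposited ratios. Groups of 4 or 5 arrays limit all these values. No paired analysis was possible because the sample titles carry unique numbers, so that groups share no replicate numbers, and arrays were tied only by slide, through the slide block and the same-slide differences.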
